A study of Mus musculus with 9 samples.

Results

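The genes described here are those of DNA repair and the DNA damage checkpoint in FVB MOE cells, a monoclonal mouse line of secretory oviductal epithelium. They were chosen by symbol from a list of 49 that was drawn up with earlier results of these data known. Every row of the expression files carrying one of those symbols was taken. Of the 49 symbols, 48 had a row of their own among 23332 gene rows, and *Lig1* and *Xrcc6* each had 2 rows, which gave 50 member rows. *Rad54b* was listed only in a row joined with *Fsbp* and was not counted.

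All 9 samples were FVB strain cells that had been kept in an estradiol-containing growth medium, were then hormone starved for 48 h in charcoal-stripped, phenol red-free medium and were treated for 24 h. The control cells received the DMSO solvent (0.1%), the second condition 1 nM 17-beta-estradiol (E2) and the third 100 nM 4-hydroxytamoxifen (4OHT, a selective estrogen receptor modulator), with 3 samples each numbered 1 to 3 in the labels. The question here was whether estrogen, or a modulator of its receptor, altered repair gene expression in a proposed ovarian cancer precursor cell. The line is 1 clone grown on plastic, and no label says whether the 3 samples came from separate cultures. In the main fit, p-values then measure only the spread among these samples that is left once differences by replicate number are removed. That spread may be technical.

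Cells mend double-strand breaks either by homologous recombination, which copies an intact sister DNA and uses *Brca1*, *Brca2* and their partners, or by end joining, which reseals the ends directly. Small base lesions and single-strand breaks are handled by base excision repair, copying errors by mismatch repair, bulky lesions by nucleotide excision repair and crosslinks by the Fanconi anemia proteins. The kinases *Atm* and *Atr*, acting through *Chek2* and *Chek1*, hold the cell cycle while repair proceeds. Many of these genes are known to be transcribed mainly in S phase and G2, and inherited loss of *BRCA1* or *BRCA2* is known to predispose to tumors that arise in the fallopian tube epithelium.

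The promoters are shown first for the called genes on which the comparisons below turn most, with *Chek2* added, after its values were seen, as the called gene whose window held an E2F element. Each run is the 250 bases before the RefSeq start on the gene's own strand, 5′ to 3′, from build GRCm38.p6 (the mm10 assembly of the files), and capitals mark a CCAAT box or an E2F element on either strand. The windows were chr14:50924699-50924948 on the plus strand for *Apex1*, chr17:87974800-87975049 on the plus strand for *Msh6*, chr1:180568641-180568890 on the plus strand for *Parp1*, chr8:9977681-9977930 on the minus strand for *Lig4* and chr5:110839733-110839982 on the plus strand for *Chek2*.
Apex1: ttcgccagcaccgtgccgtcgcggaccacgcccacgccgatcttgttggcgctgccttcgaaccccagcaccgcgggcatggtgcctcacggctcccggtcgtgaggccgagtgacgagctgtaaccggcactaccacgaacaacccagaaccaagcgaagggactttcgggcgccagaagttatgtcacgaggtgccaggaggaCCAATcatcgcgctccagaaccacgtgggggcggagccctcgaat
Msh6: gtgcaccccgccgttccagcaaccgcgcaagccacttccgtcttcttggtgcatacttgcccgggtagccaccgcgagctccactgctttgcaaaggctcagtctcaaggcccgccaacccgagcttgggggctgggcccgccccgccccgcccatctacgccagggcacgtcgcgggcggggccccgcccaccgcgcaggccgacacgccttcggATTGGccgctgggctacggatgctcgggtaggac
Parp1: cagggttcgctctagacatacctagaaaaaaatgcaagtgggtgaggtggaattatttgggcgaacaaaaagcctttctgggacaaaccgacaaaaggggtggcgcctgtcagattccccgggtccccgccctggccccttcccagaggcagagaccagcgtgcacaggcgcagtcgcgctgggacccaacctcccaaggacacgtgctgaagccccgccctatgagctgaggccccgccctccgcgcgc
Lig4: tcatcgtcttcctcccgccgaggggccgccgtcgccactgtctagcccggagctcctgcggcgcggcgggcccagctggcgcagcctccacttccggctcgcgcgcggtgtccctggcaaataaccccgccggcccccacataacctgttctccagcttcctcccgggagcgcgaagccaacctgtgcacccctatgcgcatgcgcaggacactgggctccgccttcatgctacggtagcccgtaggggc
Chek2: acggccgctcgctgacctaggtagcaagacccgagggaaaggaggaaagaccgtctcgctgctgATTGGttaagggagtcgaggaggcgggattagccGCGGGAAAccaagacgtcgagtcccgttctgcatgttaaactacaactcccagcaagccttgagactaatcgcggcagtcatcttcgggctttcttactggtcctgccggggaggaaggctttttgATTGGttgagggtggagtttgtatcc

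The *Apex1* window held a CCAAT box that began at base -45 from the start, the *Msh6* window held 1 in the reverse orientation at -34, and the *Chek2* window held 2, at -186 and -26, with an E2F element at -152. The *Parp1* and *Lig4* windows held neither. A RefSeq window was found for 38 members. The E2F element (TTTCGCGC, TTTGGCGC, TTTCCCGC or TTTGCCGC on either strand) was present in 5 of these 38 windows (13.2%), those of *Bard1*, *Brca2*, *Chek2*, *Msh3* and *Xrcc6*, against 3.81% of 7827 windows of genes tested in these cells and 1.92% of all 27025 windows. None of the 6 genes called in E2 versus DMSO had an E2F element in its window. Of the 5 genes with one, only *Chek2* was called, and only in E2 versus 4OHT. A CCAAT box was present in 20 of the 38 (52.6%), against 37.3% of the tested genes' windows and 34.5% of all windows. The canonical estrogen response element was present in 0 of the 38 windows, in 0 of the 7827 windows of tested genes and in 0.0629% of all windows. Its absence therefore does not set the members apart from the tested genes. These matches describe the letters in the window and no binding was measured.

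Expression was measured by RNAseq and is given as FPKM, fragments per kilobase of transcript and per unit of mapped fragments, a scale on which levels of different genes can be set beside each other. The files hold no read counts, and the read totals that the study lists for each sample were not used here. The depth of each sample relative to DMSO replicate 1, read from what 1 fragment was worth in weakly expressed genes, ranged from 0.824 to 1.19, and each of the 3 4OHT samples lay below each of the 3 DMSO samples. As a check of the treatment, *Pgr*, a classical estrogen receptor target, was at 9.58, 1.36 and 1.16 FPKM in DMSO replicates 1 to 3 and at 38.1, 21.1 and 15.9 FPKM in E2. The DMSO sample of replicate 1 thus lay well above the other two. Of the 4 check genes (*Pgr*, *Greb1*, *Csf2* and *Esr1*), 4 were called higher with E2 and 1 with 4OHT. Of all rows 1382 and 17 were called higher. The median log2 ratio to DMSO of the 4 genes in pairs 1, 2 and 3 was 1.63, 3.11 and 3.21 with E2. It was -0.05, 0.83 and 0.77 with 4OHT. The labelled cell type was checked against fixed markers. *Pax8*, a secretory cell factor, lay between 105 and 150 FPKM and the keratins *Krt7*, *Krt8*, *Krt18* and *Krt19* were all expressed, whereas *Epcam* and *Cdh1*, markers of epithelial cells in general, were below 1 FPKM in every sample (2 of 8 markers). *Foxj1*, a ciliated cell factor, lay between 8.95 and 15.9 FPKM. Of the 5 ciliated markers 4 had a row, and 1 of these stayed below 1 FPKM in every sample. With E2 against DMSO, 1 of the 3 ciliated rows tested was called higher and 1 lower. *Vim* lay between 1641 and 2050 FPKM, and of the other 4 stromal and 4 immune markers only *Col1a1* and *Cd68* reached 1 FPKM in any sample. The summed level of the 8 secretory and epithelial markers was 1415 to 1558 FPKM in DMSO, 2322 to 2562 in E2 and 1473 to 1673 in 4OHT, and its part in the results for the repair genes was not tested. In bulk RNA, fewer cells of a type or stage cannot be told apart from less RNA per cell.

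The repair genes differed widely in level. No member row was listed at 0 in any sample. The highest mean over the 9 samples was that of *Apex1*, the main abasic site endonuclease of base excision repair, with 85.1 FPKM. It was followed by *H2afx*, the histone variant phosphorylated around breaks, with 49.6 FPKM, *Ercc2*, a helicase of nucleotide excision repair, with 39.0 FPKM, *Xrcc6*, the Ku70 end-binding protein, with 25.8 FPKM, and *Msh6*, a mismatch recognition subunit, with 23.6 FPKM. The lowest was the second row of *Lig1* with 0.643 FPKM, which did not reach 1 FPKM in 3 samples and was therefore not tested. Its values were 0.754, 0.620 and 0.808 FPKM in DMSO, 0.760, 0.626 and 0.636 in E2 and 0.537, 0.390 and 0.659 in 4OHT, with overlapping groups. *Fancc*, of the Fanconi anemia core complex, had 1.04 FPKM, the second row of *Xrcc6* 1.23, *Brca2*, a mediator of homologous recombination, 1.65, and *Rad51c* 1.82 FPKM. The neighbours *Xrcc6* and *Msh6* had overlapping ranges over the 9 samples, 22.05 to 29.7 and 20.2 to 27.7 FPKM, and so had *Brca2* and *Rad51c*. By sample, *Xrcc6* was at 22.05, 29.6 and 26.6 FPKM in DMSO, 22.5, 24.7 and 25.8 in E2 and 24.2, 29.7 and 27.0 in 4OHT. *Rad51c* was at 1.52, 1.95 and 1.83 FPKM in DMSO, 1.84, 1.63 and 1.93 in E2 and 1.58, 2.04 and 2.03 in 4OHT. *Fancc* was at 0.978, 1.19 and 1.13 FPKM in DMSO, 0.823, 1.02 and 0.765 in E2 and 1.09, 1.45 and 0.880 in 4OHT. For each of these 3 genes the conditions overlapped. The members other than *Ercc2* were steady across samples, with a highest to lowest ratio of at most 2.23, which was that of *Lig4*.

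**Figure D1:**
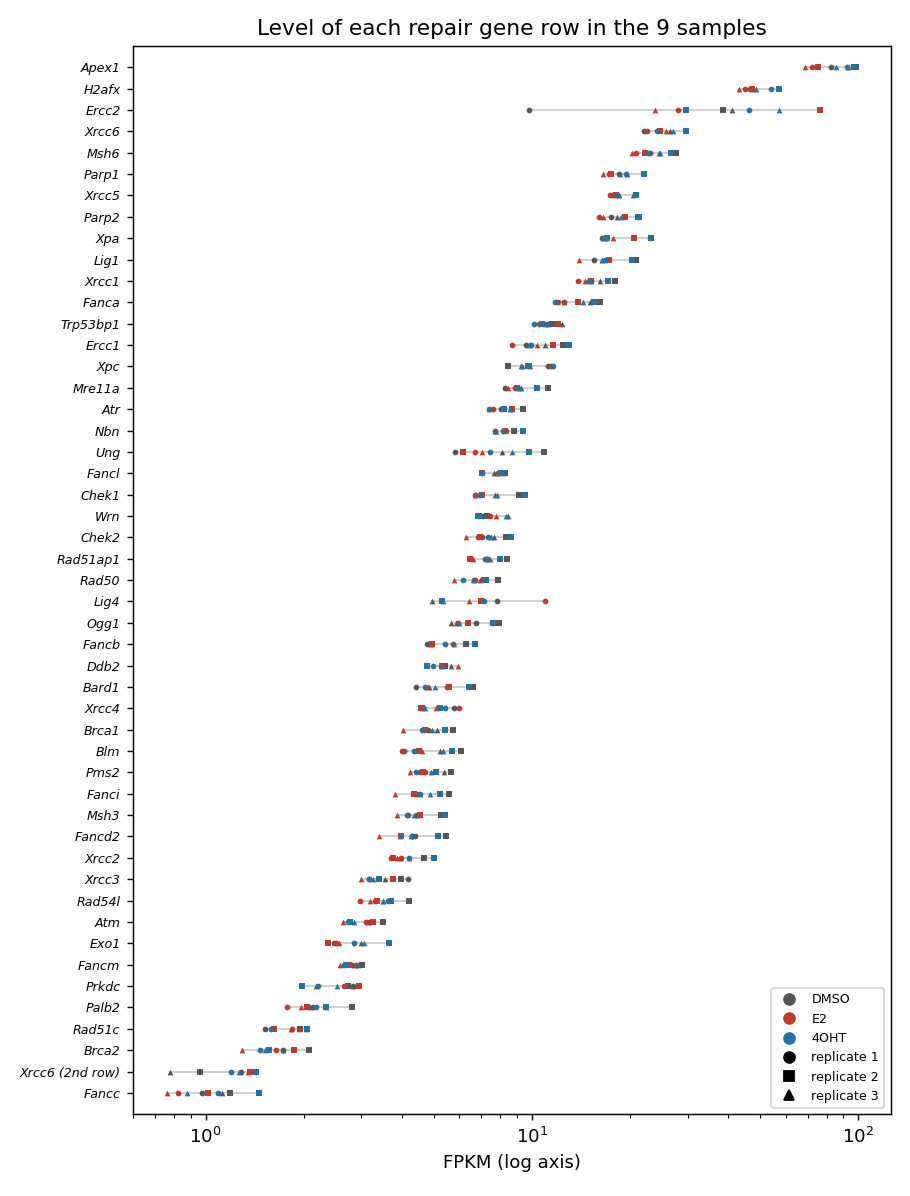
FPKM of each tested repair gene row (rows, ordered by mean) in the 9 samples on a log axis, with colors for DMSO, E2 and 4OHT, symbols for the replicate number and a grey line from the lowest to the highest sample. Levels ran from about 1 FPKM for *Fancc* to 85.1 FPKM for *Apex1*, and *Ercc2* is the row with the widest spread.

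*Ercc2* was the exception. It was listed at 9.83, 38.6 and 41.0 FPKM in DMSO replicates 1 to 3, at 28.1, 76.5 and 23.9 FPKM in E2 and at 46.3, 29.6 and 57.2 FPKM in 4OHT. The values were widely spread within every condition, and the highest was 7.78 times the lowest. The E2 minus DMSO difference on the log2(FPKM + 1) scale was 0.55 with a standard error of 0.512, and the adjusted p was 0.486 (limma). The gene lies at chr7:19382010-19395694 and overlaps *Klc3* on the opposite strand over 1258 bases. The part of that overlap in the spread was not tested.

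After E2, repair genes were on the whole slightly lower than after DMSO, and few of the differences passed the test. Of the 49 member rows tested, 6 were called at an adjusted p under 0.05 (12.2%), where 18.8% of all 11325 gene rows were called. The 5 genes *Apex1*, *Msh6*, *Parp1*, *Xrcc1* and *Fanca* fell, which is 10.2% of the members against 6.59% of all rows, and *Lig4* rose, which is 2.04% against 12.2%. The test was limma on log2(FPKM + 1) with the replicate number as a block, since the comparison was set to be paired by replicate number. Without the block 0 of the 49 members were called, with 4 at an unadjusted p under 0.05 (8.16%, against 10.9%), and 66 of all rows were called (0.583%). The calls therefore rest on the pairing by replicate number. Over all rows 64.9% of the calls were higher in E2, and after upper-quartile scaling of the libraries 54.6%, with 10 members called, 9 of them lower.

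At an unadjusted p under 0.05 stood 22 members (44.9%, against 34.4% of all rows). The E2 minus DMSO difference was below 0 in 40 of the 49 rows (81.6%, against 50.5% of all rows), and 22 rows (44.9%) were lower in all 3 replicate pairs, against 24.3% of all rows. The opposite, higher in all 3 pairs, held for 4 rows (8.16%, against 28.1%). The median difference over the members was -0.12, against -0.00 over all rows, and the median log2 ratio of FPKM in pairs 1, 2 and 3 was -0.02, -0.24 and -0.18, so that pair 1 was nearly level. In 7 rows, *Apex1*, *Brca1*, *Chek2*, *Fanci*, *Msh6*, *Palb2* and *Parp1*, every E2 sample lay below every DMSO sample (14.3%, against 6.05%), and in 1 row, the second row of *Xrcc6*, every E2 sample lay above (2.04%, against 9.14%).

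**Figure D2:**
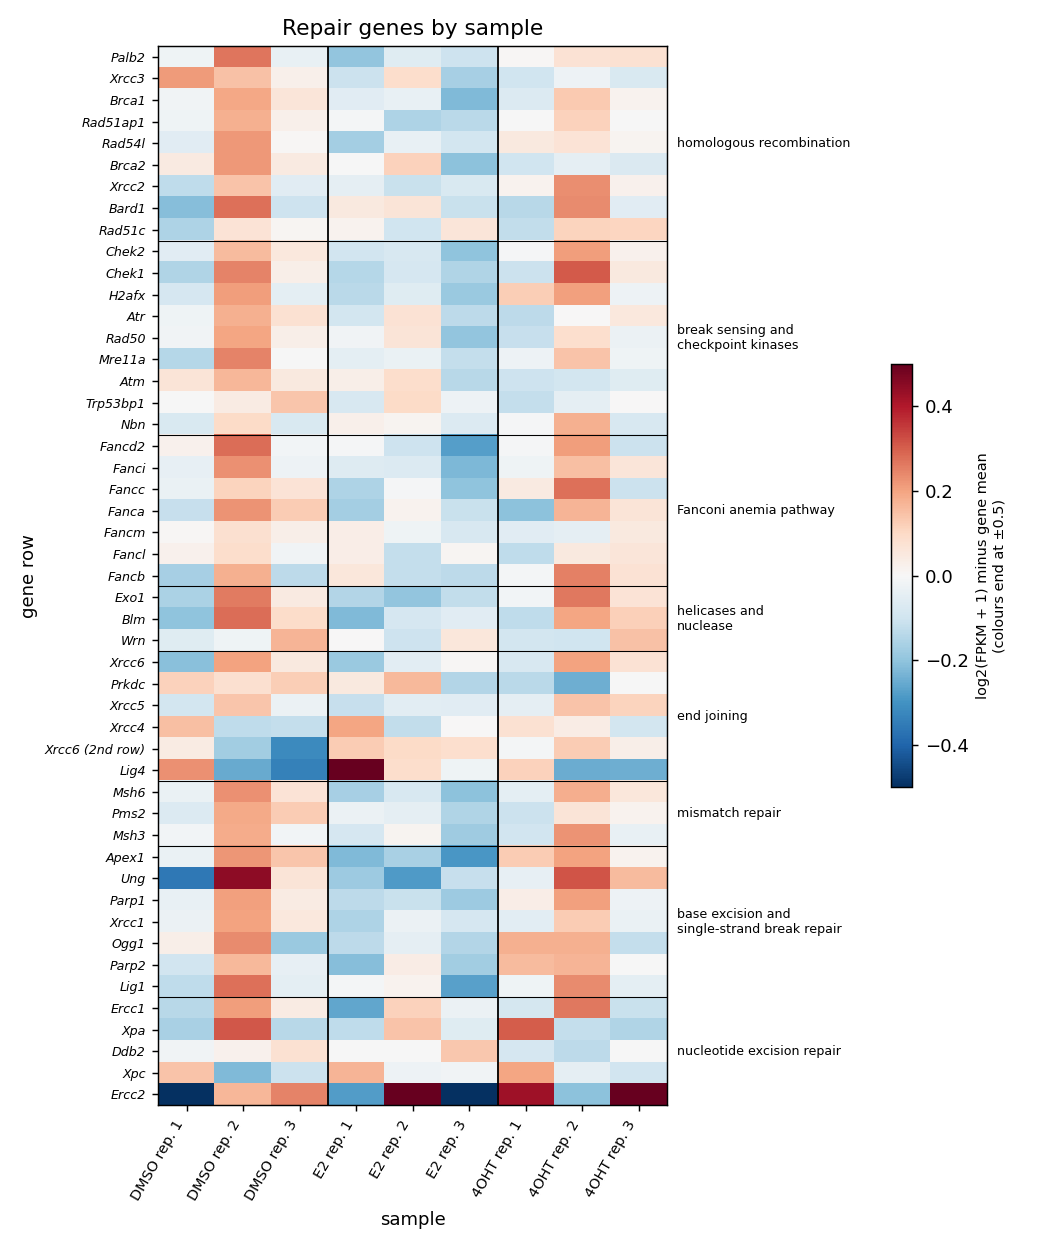
Each repair gene row by sample, as log2(FPKM + 1) minus the gene's mean over the 9 samples, grouped by role, with red above and blue below the mean. E2 replicates 1 and 3 and DMSO replicate 1 are mostly blue, and DMSO and 4OHT replicate 2 are mostly red. E2 replicate 2 holds both colors, and some cells of *Ercc2* and *Lig4* lie beyond the color range. Pair 1 had a median log2 ratio of -0.02.

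Base excision and single-strand break repair held 3 of the 6 called rows. Of its 7 tested rows all lay below 0 and 3 fell, against 50.5% and 6.59% of all rows. *Polb*, of the same pathway but outside the list, was called higher and is described below. *Apex1* (chr14:50924968-50927139) was at 82.6, 98.5 and 93.2 FPKM in DMSO, at 72.3, 75.5 and 68.8 FPKM in E2 and at 92.4, 97.3 and 85.5 FPKM in 4OHT. Every E2 sample lay below every other sample. Its mean fell by 21.0% with E2 (log2 difference -0.33, SE 0.054, limma adjusted p = 0.00481). It was called in each of the 9 fits that left out 1 sample, and its adjusted p was 0.155 without the block. Of these fits 3 left out a 4OHT sample, which is not part of the E2 minus DMSO difference. Without all samples of replicate 3 its adjusted p was 0.0589 (limma).

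*Parp1* (chr1:180568924-180601254), the enzyme that marks strand breaks with poly(ADP-ribose), was at 18.5, 21.99 and 19.5 FPKM in DMSO and at 17.2, 17.5 and 16.6 FPKM in E2. The groups did not overlap. The mean fell by 14.5% (log2 difference -0.21, SE 0.049, limma adjusted p = 0.0207), and the call held in 5 of the 9 fits without 1 sample. Where a DMSO or E2 sample was left out, it held only without DMSO replicate 1 or E2 replicate 1. *Xrcc1* (chr7:24546289-24573440), the scaffold that gathers single-strand break repair proteins, was at 15.2, 18.0 and 16.1 FPKM in DMSO and at 13.8, 15.2 and 14.6 FPKM in E2. The groups overlapped, but each E2 sample lay below the DMSO sample with its number. The mean fell by 11.5% (log2 difference -0.16, SE 0.038, limma adjusted p = 0.0217), and the call held in 6 of the 9 fits without 1 sample. Among the fits without a DMSO or E2 sample, it held only without DMSO replicate 1, E2 replicate 1 or E2 replicate 3. The other 4 tested rows were not called: *Ung*, the uracil glycosylase, with -0.25, *Ogg1*, the 8-oxoguanine glycosylase, with -0.13, *Parp2* with -0.12 and *Lig1*, a nick-sealing ligase, with -0.12 on the log2 scale.

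In mismatch repair 1 of 3 rows fell and all 3 lay below 0, against 6.59% and 50.5% of all rows. *Msh6* (chr17:87975062-87990892) was at 23.0, 27.7 and 24.7 FPKM in DMSO, at 20.9, 22.1 and 20.2 FPKM in E2 and at 22.6, 26.8 and 24.4 FPKM in 4OHT. Every E2 sample lay below every DMSO and 4OHT sample. The mean fell by 16.1% with E2 (log2 difference -0.24, SE 0.044, limma adjusted p = 0.00806), and it was called in each of the 9 fits without 1 sample. Its adjusted p without the block was 0.344. Without all samples of replicate 2 or of replicate 3 it was 0.0621 and 0.104 (limma). Its span overlaps *Fbxo11* on the opposite strand over 34 bases. *Pms2* and *Msh3* gave -0.16 and -0.14 and were not called.

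The 1 called rise was in end joining, where 3 of the 6 tested rows lay below 0 and the median difference was -0.01. Of all rows 12.2% were called higher and 50.5% lay below 0. *Lig4* (chr8:9969049-9977686, minus strand), the ligase that seals joined ends, was at 7.80, 5.31 and 4.94 FPKM in DMSO, at 11.0, 6.97 and 6.41 FPKM in E2 and at 7.14, 5.32 and 5.34 FPKM in 4OHT. Replicate 1 stood high in every condition, so that the groups overlapped, and within each pair the E2 sample was the higher one. Its mean rose by 35.1% with E2 (log2 difference 0.37, SE 0.062, limma adjusted p = 0.0056), in each of the 9 fits without 1 sample, and its adjusted p was 0.58 without the block. *Xrcc4*, the partner protein of *Lig4*, gave 0.06, and the Ku genes *Xrcc5* and *Xrcc6* gave -0.08 and -0.09. *Prkdc*, the catalytic subunit of the DNA-dependent protein kinase, gave -0.09. None of these 4 was called. The second row of *Xrcc6*, at 1.28, 0.963 and 0.779 FPKM in DMSO and 1.42, 1.37 and 1.35 FPKM in E2, gave 0.25 with an adjusted p of 0.0779 (limma), opposite in sign to the main row. How fragments were divided between the 2 rows is not known from the files.

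**Figure D3:**
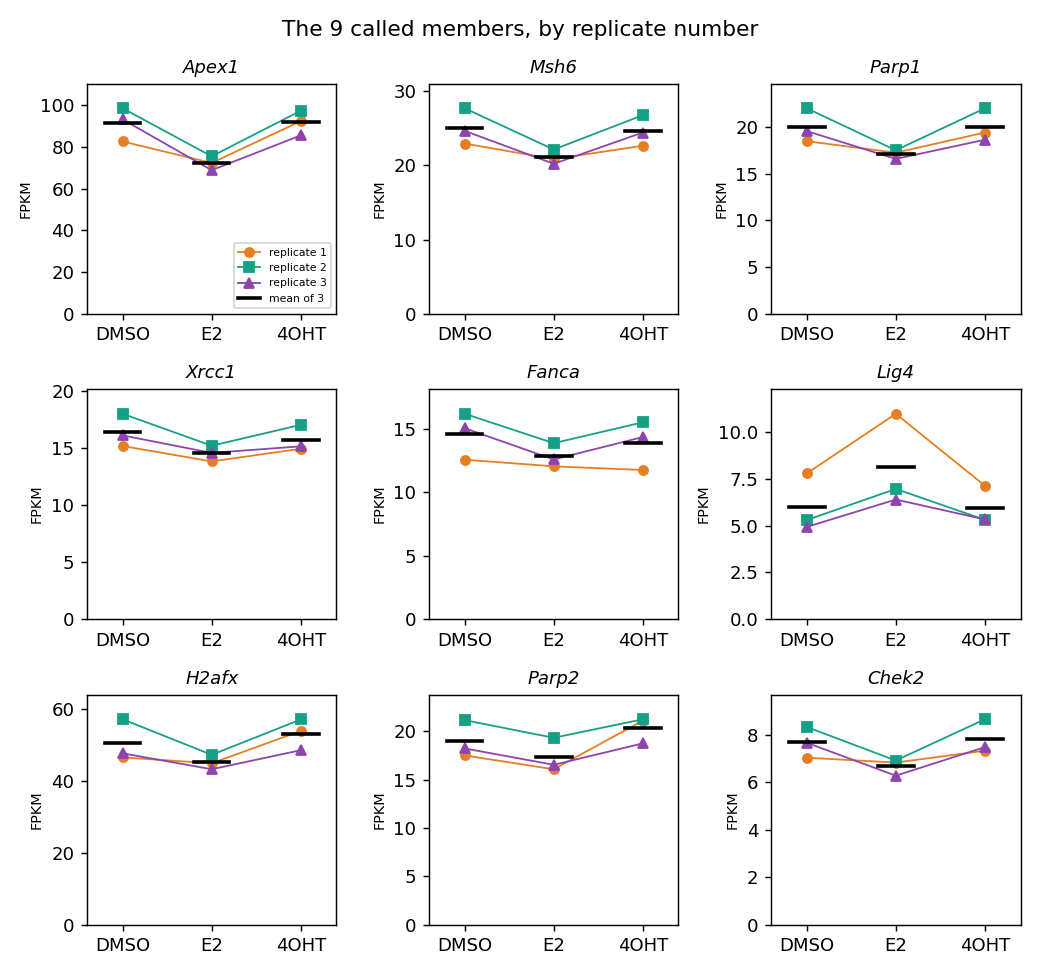
FPKM of the 9 member genes called in E2 versus DMSO or E2 versus 4OHT, with colored lines joining samples of one replicate number, black bars at the mean of 3 samples and axes starting at 0. E2 is the low point for *Apex1*, *Msh6* and *Parp1* in every replicate, and *Lig4* peaks in E2 in every replicate while replicate 1 runs above the other two.

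Of the 7 Fanconi anemia rows all lay below 0 and 1 fell, against 50.5% and 6.59% of all rows. *Fanca* (chr8:123268300-123318576, minus strand), of the core complex, was at 12.6, 16.2 and 15.1 FPKM in DMSO and at 12.05, 13.9 and 12.6 FPKM in E2. The groups overlapped and the 3 pairs were lower. Its mean fell by 12.1% (log2 difference -0.17, SE 0.049, limma adjusted p = 0.0454), the member just inside the threshold, and the call was kept in 1 of the 9 fits without 1 sample. Its span overlaps *Zfp276* on the opposite strand over 1446 bases. *Fancd2*, the crosslink repair protein that the core complex ubiquitinates, gave -0.22 and an adjusted p of 0.0601 (limma), just outside the threshold, and its partner *Fanci* gave -0.17 and 0.0919.

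None of the 9 homologous recombination rows was called and 7 lay below 0, where 18.8% of all rows were called and 50.5% lay below 0. *Brca1* was at 4.80, 5.72 and 5.12 FPKM in DMSO and at 4.66, 4.72 and 4.04 FPKM in E2, a difference of -0.18 (SE 0.059, limma adjusted p = 0.0641). The groups did not overlap, but in pair 1 the samples were close. *Brca2* was at 1.73, 2.07 and 1.73 FPKM in DMSO and at 1.64, 1.87 and 1.29 FPKM in E2, with -0.13, and *Palb2*, which bridges them, gave -0.19. *Bard1*, the obligate partner of *Brca1*, gave 0.02 and *Rad51c* 0.02. The joined row of *Fsbp* and *Rad54b* gave -0.13.

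None of the 9 rows of break sensing and the checkpoint kinases was called in E2 versus DMSO, and 8 lay below 0. For this and the next lists, 18.8% of all rows were called and 50.5% lay below 0. *Chek2* came closest with -0.18 (SE 0.053, limma adjusted p = 0.0527). *H2afx* gave -0.15 and *Chek1* -0.17. The apical kinases *Atr* and *Atm* gave -0.13 and -0.10, and the break sensor subunits *Rad50*, *Mre11a* and *Nbn* gave -0.12, -0.10 and 0.01. The 3 helicases and nuclease rows all lay below 0, with -0.20 for the nuclease *Exo1*, -0.18 for the helicase *Blm* and -0.04 for *Wrn*, and none was called. Nucleotide excision repair had 2 of 5 rows below 0 and none called, with *Xpc*, the lesion sensor, at 0.10 and *Ercc1*, a nuclease subunit, at -0.09.

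**Figure D4:**
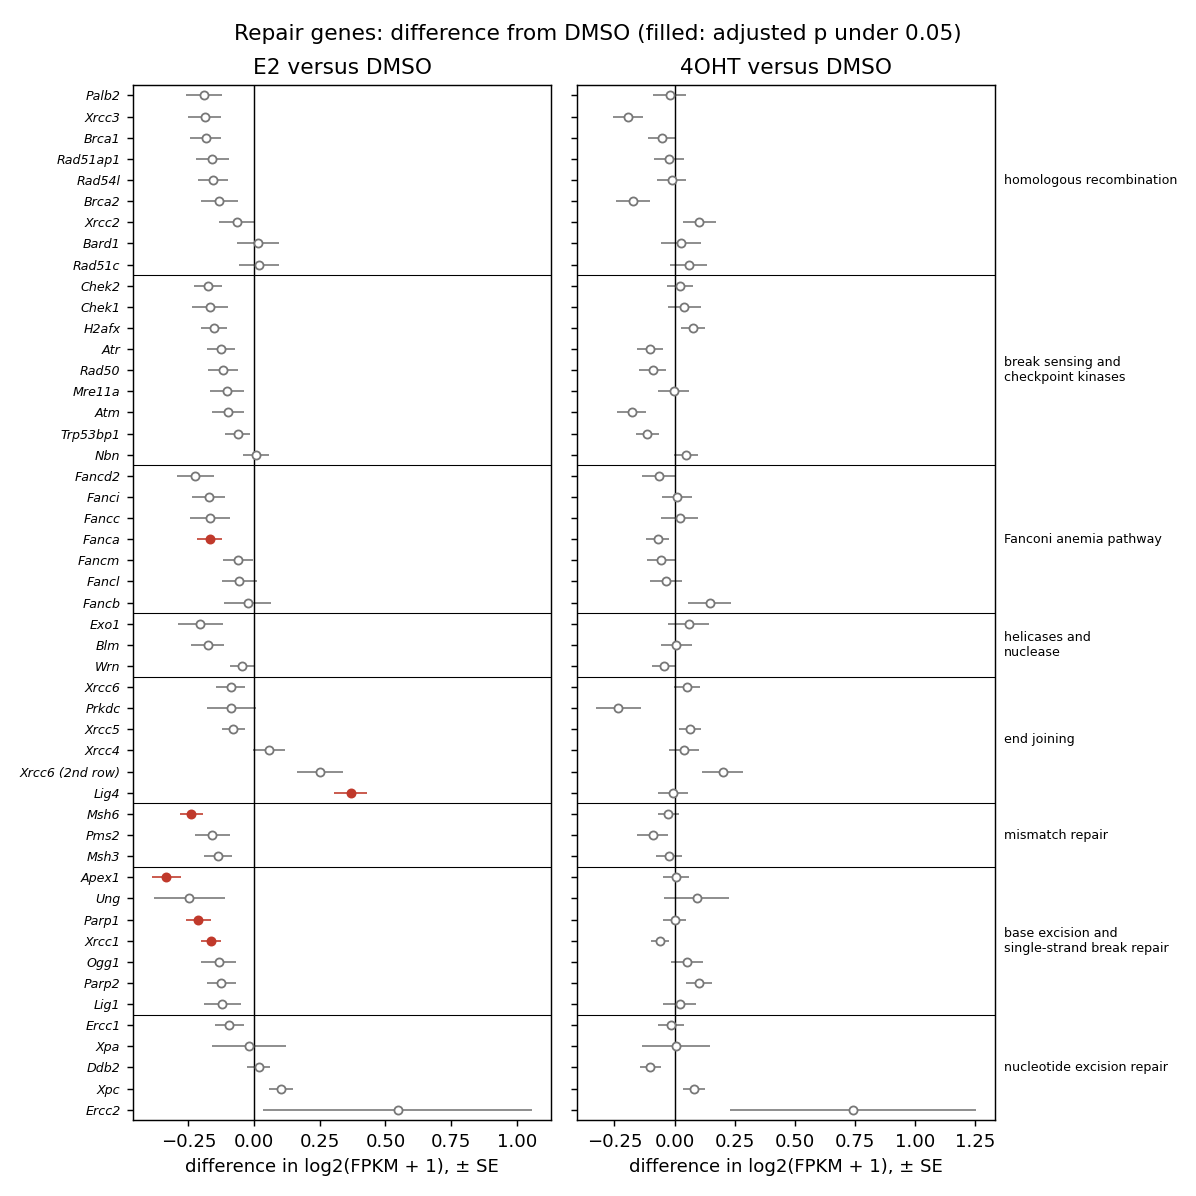
Difference in log2(FPKM + 1) from DMSO for each tested repair gene row with E2 (left) and 4OHT (right), bars showing 1 standard error and filled points a limma adjusted p under 0.05, grouped by role. The E2 points lie mostly left of 0, with *Lig4* filled to the right at 0.37. The 4OHT points scatter around 0 with none filled, and the bars of *Ercc2* are the widest in both panels.

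4OHT left no member past the test. Of the 49 rows 0 were called against DMSO, where 22 of all rows were (0.194%), and 7 members (14.3%) had an unadjusted p under 0.05 against 13.9% of all rows. The differences were split, with 24 below 0 (49%, against 37.2% of all rows), and their median was 0.00 where that of all rows was 0.02. The 4 members with the smallest p all had lower values. *Xrcc3*, a homologous recombination gene, was at 4.18, 3.96 and 3.55 FPKM in DMSO and at 3.17, 3.40 and 3.25 FPKM in 4OHT (log2 difference -0.19, limma adjusted p = 0.307). *Atm* was at 3.20, 3.50 and 3.15 FPKM in DMSO and at 2.74, 2.76 and 2.85 FPKM in 4OHT (-0.18, adjusted p = 0.308).

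*Prkdc* was at 2.82, 2.73 and 2.84 FPKM in DMSO and at 2.22, 1.98 and 2.52 FPKM in 4OHT (-0.23, limma adjusted p = 0.335), and *Brca2* at 1.47, 1.57 and 1.52 FPKM in 4OHT (-0.17, adjusted p = 0.338). In these 4 rows every 4OHT sample lay below every DMSO sample (8.16% of the members, against 3.57% of all rows), and in 0 rows did every 4OHT sample lie above (against 4.37%). Each 4OHT sample was also shallower than each DMSO sample, and the part of depth in these differences was not tested. For *Apex1* and *Lig4* the 4OHT minus DMSO difference was 0.01 (SE 0.054) and -0.00 (SE 0.062).

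Set directly against 4OHT, E2 gave 7 called members of 49 (14.3%, against 21.9% of all 11327 rows). *Apex1*, *Msh6*, *H2afx*, *Parp1*, *Parp2* and *Chek2* were called lower in E2 (12.2% of members, against 11.1%) and *Lig4* was called higher (2.04%, against 10.8%). Without the replicate block 0 members were called, with 7 at an unadjusted p under 0.05 (14.3%, against 11.8%), and 37 of all rows (0.327%). The difference was -0.34 for *Apex1* (limma adjusted p = 0.00519), -0.21 for *Msh6* (0.0136), -0.21 for *Parp1* (0.0205) and 0.37 for *Lig4* (0.00612). This comparison shares the E2 samples with the comparison to DMSO, so the values stand side by side and do not add support to each other.

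*H2afx*, *Parp2* and *Chek2* passed the test against 4OHT and not against DMSO. The difference between those comparisons is 4OHT minus DMSO, which was 0.08 for *H2afx*, 0.10 for *Parp2* and 0.02 for *Chek2* (limma adjusted p = 0.474, 0.415 and 0.841), none of them called. *H2afx* (chr9:44334694-44336077) was at 44.9, 47.3 and 43.2 FPKM in E2 and at 53.9, 57.1 and 48.5 FPKM in 4OHT (log2 difference -0.23, SE 0.050, limma adjusted p = 0.0166). In DMSO it was at 46.5, 57.1 and 47.7 FPKM. *Parp2* (chr14:50807841-50821301), a relative of *Parp1*, was at 16.1, 19.3 and 16.5 FPKM in E2 and at 21.1, 21.3 and 18.8 FPKM in 4OHT (-0.22, SE 0.054, adjusted p = 0.0248). In DMSO it was at 17.5, 21.2 and 18.2 FPKM, so that the 3 conditions overlapped.

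*Chek2* (chr5:110839979-110874145), the kinase downstream of *Atm*, was at 6.83, 6.92 and 6.28 FPKM in E2, at 7.33, 8.66 and 7.48 FPKM in 4OHT and at 7.04, 8.33 and 7.67 FPKM in DMSO (E2 minus 4OHT -0.20, SE 0.053, limma adjusted p = 0.0328). Every E2 sample lay below every sample of the other conditions. The calls for *H2afx* and *Parp2* were kept in 6 of 9 fits without 1 sample and that for *Chek2* in 3. Of those 9 fits 3 left out a DMSO sample, which is not part of the E2 minus 4OHT difference. Over all members, 14 rows had every E2 sample below every 4OHT sample (28.6%, against 9.90% of all rows) and *Ddb2*, a DNA damage sensor, alone had every E2 sample above (2.04%, against 8.40%).

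The repair genes differed by replicate number no more often than all rows did. A moderated F test of the replicate coefficients called 22 of the 49 members (44.9%), against 49.7% of all rows. The 4 with the smallest p were *Lig4*, *Ercc1*, *Xpc* and *Fanca*. The mean over the 3 conditions was 8.65, 5.87 and 5.56 FPKM for *Lig4* at replicate numbers 1, 2 and 3, and 11.4, 9.34 and 9.49 FPKM for *Xpc*, so that replicate 1 was the high one for both. It was 9.41, 12.3 and 10.4 FPKM for *Ercc1* and 12.1, 15.2 and 14.0 FPKM for *Fanca*, with replicate 1 the low one. By sample, *Xpc* was at 11.2, 8.48 and 9.25 FPKM in DMSO, 11.4, 9.83 and 9.89 in E2 and 11.6, 9.70 and 9.33 in 4OHT. *Ercc1* was at 9.57, 12.4 and 10.97 FPKM in DMSO, 8.71, 11.6 and 10.4 in E2 and 9.95, 13.0 and 9.79 in 4OHT. What the numbers stand for is not given in the labels.

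Repair genes outside the list differed by -0.30 to 0.25 with E2. Of 59 further repair rows tested, 6 fell with E2 and 1 rose, where 6.59% of all rows fell and 12.2% rose. Of the 59 rows 46 lay below 0, against 50.5% of all rows, and the median was -0.08. *Pole*, the leading-strand polymerase, was at 10.3, 14.6 and 11.7 FPKM in DMSO and at 8.70, 11.7 and 8.82 FPKM in E2 (-0.30, limma adjusted p = 0.00912). *Tdp1*, which removes trapped topoisomerase, and *Fancg* each gave -0.24. *Polb*, the gap-filling polymerase of base excision repair, rose from 29.4, 29.3 and 30.5 FPKM in DMSO to 35.0, 34.8 and 36.9 FPKM in E2 (0.25, SE 0.031, limma adjusted p = 0.00143), opposite in direction to *Apex1*, *Parp1* and *Xrcc1* of the same pathway. Of 12 further checkpoint rows 0 were called, against 18.8% of all rows, 11 lay below 0 and the median was -0.08.

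Among 25 rows of p53 and its target genes, 6 fell with E2 and 3 rose, against 6.59% and 12.2% of all rows. *Trp53* itself fell from 104, 129 and 102 FPKM in DMSO to 88.1, 99.1 and 84.2 FPKM in E2 (-0.29, limma adjusted p = 0.00168). *Gadd45b*, a stress-induced growth arrest gene, gave -0.32 and *Plk2* -0.27, whereas its relatives *Gadd45a* and *Gadd45g* rose by 0.43 and 0.42 on the log2 scale and *Btg2* by 0.15. Without the block 1 of the 25 was called, *Gadd45g*, against 0.583% of all rows. With 4OHT against DMSO 0 rows of the p53, further repair and further checkpoint lists were called, against 0.194% of all rows.

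Lists of cell cycle genes were examined beside the repair genes. Of 32 DNA replication rows 8 fell with E2 and 31 lay below 0, against 6.59% and 50.5% of all rows. Their median was -0.18, and in pairs 1, 2 and 3 the median log2 ratio was 0.01, -0.40 and -0.20. *Mcm7*, a subunit of the replicative helicase, was at 72.7, 102 and 80.1 FPKM in DMSO and at 64.2, 65.9 and 62.4 FPKM in E2 (-0.39, limma adjusted p = 0.00919). Of 20 mitosis rows 4 fell and all 20 lay below 0, against the same shares of all rows. Their median was -0.18, with pair medians of 0.03, -0.37 and -0.22. *Cdc20*, the activator of the anaphase-promoting complex, was at 44.9, 58.7 and 42.6 FPKM in DMSO and at 41.2, 37.8 and 32.9 FPKM in E2 (-0.37, limma adjusted p = 0.0239).

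With E2 against 4OHT, 31 of the 32 replication rows and 17 of the 20 mitosis rows lay below 0, and 15 and 10 of them were called lower. Of all 11327 rows 6156 lay below 0, and 11.1% were called lower. With 4OHT against DMSO 0 of either were called, against 0.194% of all rows. Without the block 0 rows of either list were called in any of the 3 comparisons. The repair genes had pair medians of -0.02, -0.24 and -0.18. For them and for both cell cycle lists the median was lowest in pair 2 and nearest to 0 in pair 1, where the cell cycle lists lay slightly above 0. The part of cell cycle position in the lower repair gene levels was not tested.

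**Figure D5:**
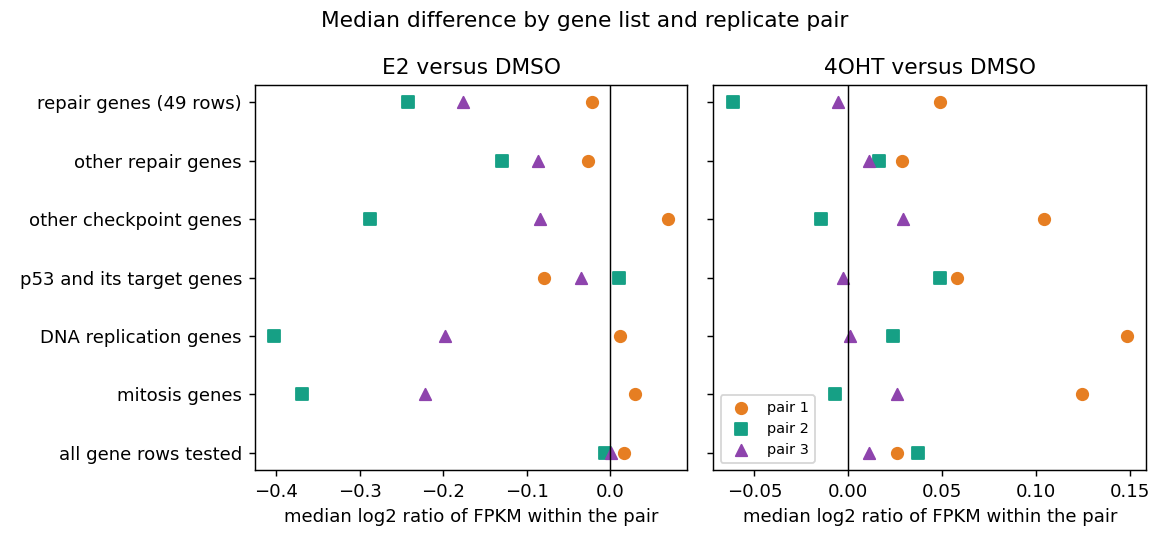
Median log2 ratio of FPKM within each replicate pair for the repair genes, 5 other gene lists and all tested rows, with E2 versus DMSO on the left and 4OHT versus DMSO on the right, on axes of different width. With E2, pair 1 lies near 0 and pairs 2 and 3 lie below it for the repair, replication and mitosis genes, while all tested rows sit near 0 in every pair.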

How the data were processed

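RNA of 9 FVB MOE samples was sequenced. After trimming, the authors mapped reads with TopHat2 (2.0.8b) to mm10 and obtained FPKM of known UCSC genes from Cufflinks (Cuffdiff 2.1.1 in the submitters' notes). The deposited FPKM values were used as given, with no further scaling, and whether a scaling between libraries was part of them is not stated in the sources used here. Groups and replicate numbers came from the labels.

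Rows with at least 1 FPKM in at least 3 samples were tested (11339 rows, of which 14 gave no estimate for E2 versus DMSO). An exact 0 in a row whose median over its values above 0 was at least 1 FPKM was treated as missing (998 values in 299 rows, none of them a member). limma 3.58.1 in R 4.3.3, with a trended prior, was fitted to log2(FPKM + 1) of all 9 samples with condition and replicate number as terms, and p-values were adjusted by Benjamini-Hochberg over all rows within a comparison. A call is an adjusted p under 0.05. Differences on this scale understate changes of rows near 1 FPKM. The fit was run on simulated data as a check of the code. Its pass condition covered only changes larger than those of the called members, so it does not test their calls. Over the 11094 rows without an exact 0, same-numbered samples deviated together, with correlations of deviations of 0.523 to 0.828. For samples of different number these were -0.647 to 0.064. Over all rows the ranges overlapped, at 0.0528 to 0.293 for the same number and -0.238 to 0.0952 for different numbers. The pairing comes from the replicate numbers in the labels. The block is a choice of this report and not of the study. Alternatives were no block, zeros kept, a pseudocount of 0.1, no filter, upper-quartile scaling, only the 6 samples compared, an adjusted p under 0.01 and leaving out each sample or replicate number.

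The members and gene lists were chosen with earlier results of these data known. Values by sample are given for up to 12 called members with the smallest p, up to 4 members with the smallest p for 4OHT, the 5 highest and the 5 lowest, any listed at 0, and 4 for replicate number. Of other lists up to 3 called genes per direction are named, and promoters are shown for up to 4 called members. Members outside this rule are given by their differences. Gene spans are those of GENCODE M21, and 16 members overlap another gene expressed at a mean of at least 1 FPKM. The methods describe directional single-end libraries. Whether the counting used strand is not given in the sources used here, so overlapping genes on opposite strands may or may not share fragments. Promoter windows are those of RefSeq on GRCm38.p6, 250 bases before the start.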

Additional observations from a re-analysis of the deposited data

How the results depend on the processing

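Paired by replicate number, 6 members were called in E2 versus DMSO and 7 in E2 versus 4OHT. Without the block it was 0 in both, and the rows called over all genes went from 2128 to 66, from 2476 to 37 and, for 4OHT versus DMSO, from 22 to 0. For E2 versus DMSO, upper-quartile scaling gave 10 members (9 lower, 1 higher, the 4 more being *Fancd2*, *Chek2*, *H2afx* and *Brca1*) and changed the share of higher calls over all rows from 64.9% to 54.6%. Only the 6 samples compared gave 3 members and 1286 rows, and an adjusted p under 0.01 gave 3 members and 911 rows. Leaving out 1 sample gave 3 to 15 members and 953 to 1900 rows, with 15 members without E2 replicate 1 and 3 without DMSO replicate 2 or DMSO replicate 3. Leaving out a replicate number gave 1 to 12 members and 675 to 1408 rows, with 12, 2 and 1 members without numbers 1, 2 and 3. Those called without number 2 were *Apex1* and *Lig4*, and without number 3 only *Lig4* was called. For E2 versus 4OHT, an adjusted p under 0.01 gave 2 members and 762 rows. Leaving out 1 sample gave 3 to 18 members and 689 to 2416 rows, with 18 members without E2 replicate 1, 3 without 4OHT replicate 1 or 2 and 4 without E2 replicate 2, and leaving out a replicate number gave 2 to 7 members and 932 to 1042 rows. For 4OHT versus DMSO, no member was called under any alternative, and the 22 rows became 0 with zeros kept, with no filter and at an adjusted p under 0.01, 56 with only the 6 samples compared, 1 to 40 without 1 sample and 1 to 16 without a replicate number. The members called for the replicate number, 22, became 12 with no filter, 5 at an adjusted p under 0.01 and 7 to 28 without 1 sample. The cause of these changes was not tested. None of the members called in a comparison with E2, and none of the 4 described for 4OHT, changed direction in its comparison under any alternative run. Other members did so, among them *Ercc2*, *Bard1*, *Rad51c*, *Nbn* and *Prkdc* when 1 sample was left out of E2 versus DMSO. Fragment counts per gene were not computed here, so counting error was not separated from the spread between samples.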
